A study of Mus musculus with 2 samples.

Results

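The replication-dependent histone genes examined here were all genes whose symbol starts with Hist1h, Hist2h, Hist3h or Hist4h and that had at least 10 unique molecular identifiers (UMIs) over both libraries. They were 62 of the 30905 genes listed. Of 67 symbols of the family, 4 had no UMI and 1 had fewer than 10. The 62 genes encode 5 H1 linker histones, 16 H2A, 16 H2B, 12 H3 and 13 H4 core histones. They were chosen by name and abundance only, and their levels were not used in the choice beyond that minimum.

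Histones package DNA into nucleosomes, and a replicating cell makes the core histones and the H1 linker in step with its new DNA. Transcripts of most of these genes end not in a poly(A) tail but in a conserved stem-loop, which the stem-loop binding protein SLBP recognises, and they are degraded when replication stops. A minority of histone genes can also give polyadenylated transcripts, which cells that no longer divide may keep. In the postnatal retina, the last retinal progenitor cells (RPCs) still divide, while photoreceptors, interneurons and Müller glia do not.

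The data are single-cell RNA sequencing of mouse retinas at p7. The control library came from retinas of 2 control pups, whose own alleles are not given in the sources used here. The Mettl3-CKO library came from retinas of 2 pups of the same litter that carried Six3-Cre and 2 floxed alleles of Mettl3, the gene of the enzyme that writes N6-methyladenosine on mRNA. Six3-Cre is active in RPCs, and cells of other lineages, such as microglia, keep the gene. The study describes efficient loss of METTL3 in the central retina, while whole retinas were sequenced. It places the RPCs of this age likely at the retinal periphery. How many RPCs and RPC-derived cells of the Mettl3-CKO library kept Mettl3 was not tested. Each genotype was thus 1 pooled library with no replicate, no test between genotypes was possible, and every interval below is a 95% interval that covers counting error only.

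The control library gave 3994 complete cells and 20955138 nonmitochondrial UMIs, with a median of 4520.5 UMIs per cell, and the Mettl3-CKO library 3109 cells and 19957693 UMIs, with a median of 5207. The matrices as read here ended early, so 2001 and 3883 further barcodes were not analysed. A total of 11 barcodes occurred in both libraries, 5 of them in both sets of analysed cells. Among cells of at least 4000 UMIs, a UMI of Xist was found in 0.899% of control cells (22 of 2446) and in 64.5% of Mettl3-CKO cells (1400 of 2170), and Xist marks female cells, so genotype, sex and library cannot be told apart. Mettl3 itself was at 39.5 counts per 1000000 nonmitochondrial UMIs (CPM) in the control and at 33.1 CPM in the Mettl3-CKO library (828 and 660 UMIs). The libraries count 3′ ends, and the floxed part of Mettl3 is not given in the sources used here, so this level does not check the labels. 1 UMI stands for 1 captured 3′ end whatever the length of the transcript, and capture may differ between transcripts. Ratios were therefore taken between groups of cells. Where genes or types are ranked or given as shares within a group of cells, these are shares of captured UMIs. They need not be shares of histone mRNA.

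All 62 genes were found in the GENCODE annotation of GRCm38. The large cluster on chromosome 13 (21715763 to 23764406) held 50 of them, chromosome 3 (96219865 to 96270132) held 9, chromosome 11 held Hist3h2a and Hist3h2ba (58948920 to 58956830), and chromosome 6 held Hist4h4 alone (136801553 to 136804415). For 58 genes, the longest coding transcript had 1 exon. A stem-loop with a perfect 6-base stem and a 4-base loop was found after the stop codon of 41 genes, in 6 distinct forms, and 24 of the 41 shared 1 form. The following stem-loops, with 5 flanking bases from the 3′ part of each transcript, are shown because the genes that carry them had very different levels in cycling and noncycling cells. Capitals mark the stem and the loop, and the sequences are those of the GENCODE transcripts of GRCm38.

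Hist1h2ap (H2A, chr13:21833026-21833049, minus strand): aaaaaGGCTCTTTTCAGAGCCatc
Hist1h2ab (H2A, chr13:23751567-23751592, plus strand): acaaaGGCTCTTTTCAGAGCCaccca
Hist1h3c (H3, chr13:23745042-23745067, minus strand): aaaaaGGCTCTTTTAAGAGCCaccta
Hist1h4d (H4, chr13:23581945-23581970, plus strand): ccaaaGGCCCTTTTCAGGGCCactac
Hist1h1c (H1, chr13:23739507-23739532, plus strand): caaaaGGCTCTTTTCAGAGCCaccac
Hist3h2ba (H2B, chr11:58949344-58949369, plus strand): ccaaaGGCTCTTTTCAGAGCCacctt
Hist4h4 (H4, chr6:136803993-136804018, minus strand): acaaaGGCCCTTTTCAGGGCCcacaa

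The length of annotated transcript after the stem-loop varied widely. The annotated transcript of Hist1h2ap ended 3 bases past the stem-loop, that of Hist1h2ab 11 bases and that of Hist1h3c 74 bases past it. By contrast, the transcript went on for 169 bases past the stem-loop in Hist3h2ba, 770 bases in Hist1h4d, 840 bases in Hist1h1c and 2445 bases in Hist4h4. Of the 41 genes with a stem-loop, 20 ended at most 100 bases past it and 21 ran further. The hexamer AATAAA, the canonical poly(A) signal, occurred past the stem-loop in 12 of those 21 genes and in 0 of the 20.

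To compare cycling and noncycling cells, each cell of at least 2000 UMIs was thinned to 2000 UMIs and sorted by a list of 30 S-phase and a list of 43 G2/M genes, 42 of them listed in the files, which contained no histone gene. S-phase cells had at least 6 S-phase UMIs and at least as many of them as G2/M UMIs, G2/M cells at least 8 G2/M UMIs and more of them than S-phase UMIs, and noncycling cells at most 3 UMIs of both lists together. In the control library 69 cells (2.23%) were in S phase, 118 (3.82%) in G2/M and 2710 (87.6%) noncycling, of 3093 cells. In the Mettl3-CKO library the numbers were 117 (4.53%), 173 (6.69%) and 2068 (80%) of 2585 cells. The S-phase share was thus 2.03-fold higher (1.51 to 2.72) and the G2/M share 1.75-fold higher (1.40 to 2.20) in the Mettl3-CKO library. RPC-like clusters held 55.1% of S-phase and 80.5% of G2/M cells of the control library and 69.2% and 87.3% of those of the Mettl3-CKO library.

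With the states as defined here, the 62 histone genes together were highest in G2/M cells of both libraries. The order turned when cells past both limits were counted in S phase, which then held 6.63-fold and 6.64-fold the noncycling level in the control and Mettl3-CKO library, against 4.27-fold and 4.87-fold in G2/M. Their summed level was 1170 CPM (1153 to 1186) in noncycling, 2390 CPM (2267 to 2516) in S-phase and 8244 CPM (8095 to 8396) in G2/M cells of the control library. In the Mettl3-CKO library it was 1062 CPM (1046 to 1079), 3012 CPM (2911 to 3116) and 8068 CPM (7947 to 8191). G2/M cells therefore held 7.05-fold (6.89 to 7.21) the noncycling level in the control and 7.59-fold (7.43 to 7.76) in the Mettl3-CKO library, while S-phase cells held 2.04-fold (1.93 to 2.16) and 2.84-fold (2.73 to 2.94).

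**Figure D1:**
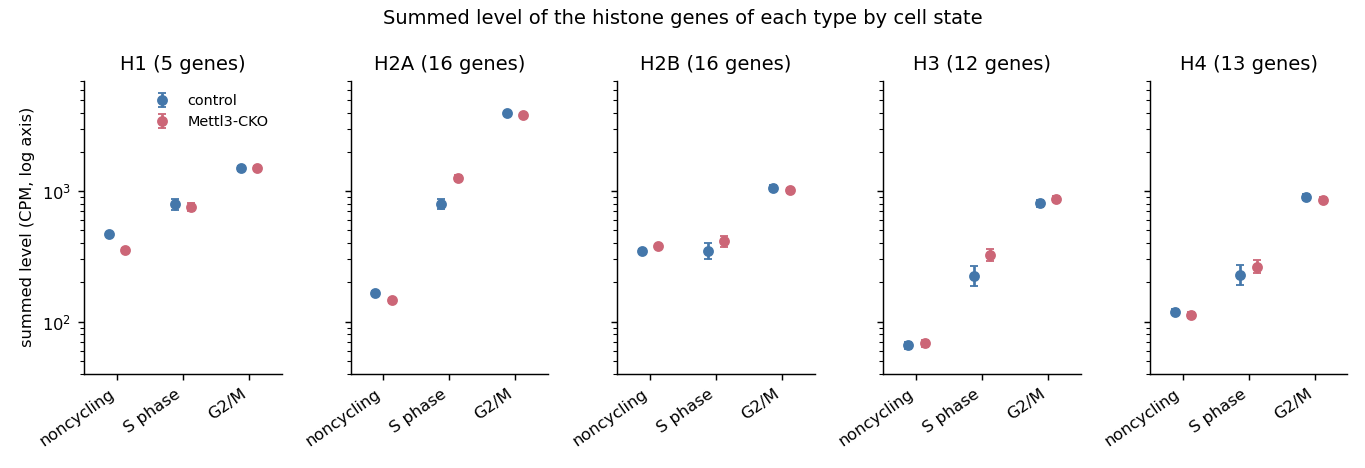
Summed level of the genes of each histone type (vertical axis, CPM, log axis) in noncycling, S-phase and G2/M cells of the control (blue) and Mettl3-CKO (red) library; points are sums over 1 library and bars their 95% Poisson intervals. Summed H2A went from 167 to 3978 CPM between noncycling and G2/M cells of the control library and summed H2B from 351 to 1058 CPM. Hist3h2ba alone held most of the noncycling H2B UMIs.

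The summed levels of the types differed widely in this ratio. H2A, which forms the core octamer with H2B, H3 and H4, was at 167 CPM in noncycling and 3978 CPM in G2/M cells of the control library and at 146 and 3811 CPM in the Mettl3-CKO library, which are 23.9-fold (22.8 to 25.0) and 26.1-fold (24.9 to 27.4) differences. The summed level of H2B, its partner, was 3.02-fold (2.85 to 3.19) and 2.69-fold (2.56 to 2.83) higher in G2/M than in noncycling cells. For H3 the ratio was 12.3 (11.3 to 13.4) and 12.8 (11.8 to 13.8), for H4 7.56 (7.04 to 8.12) and 7.63 (7.13 to 8.16), and for the H1 linkers 3.21 (3.06 to 3.37) and 4.21 (4.03 to 4.40). H2A accordingly held 48.3% of the histone UMIs in control G2/M cells but 14.2% in noncycling cells, and H1 18.2% against 39.98%. The plot of types by state shows the same order of states for every type except H2B, whose S-phase level was 0.993-fold (0.861 to 1.14) the noncycling one in the control library.

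Counted gene by gene, most members were higher in cycling cells. Among genes with at least 20 UMIs over the groups compared, 47 of 54 members were at least 1.5-fold higher in G2/M than in noncycling cells of the control library (20.8% of all genes passed this limit) and 3, Hist3h2ba, Hist2h3c1 and Hist2h3c2, at least 1.5-fold lower (34.7% of all genes). The other 8 members had too few UMIs. The numbers were 47 of 54 higher (all genes, 21.6%) and 2 lower (all genes, 30.7%) in the Mettl3-CKO library. In S phase over noncycling, 29 of 41 members were higher (all genes, 22.3%) and 7 lower (all genes, 32.5%) in the control, and 34 of 45 higher (all genes, 24.1%) and 7 lower (all genes, 29.8%) in the Mettl3-CKO library. The median log2 ratio of members in G2/M over noncycling cells was 4.28 in control and 4.004 in Mettl3-CKO cells, where that of all genes was -0.15 and -0.09. In S phase over noncycling the medians were 1.64 and 2.35, beside -0.04 and -0.03 for all genes. Some members reached the minimum of 20 UMIs mainly through cycling cells. Hist1h2bk, for example, was at 0.478 CPM in noncycling and 55.3 CPM in G2/M cells of the control library. The minimum thus favoured members high in cycling cells, and these counts and medians are a description.

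**Figure D2:**
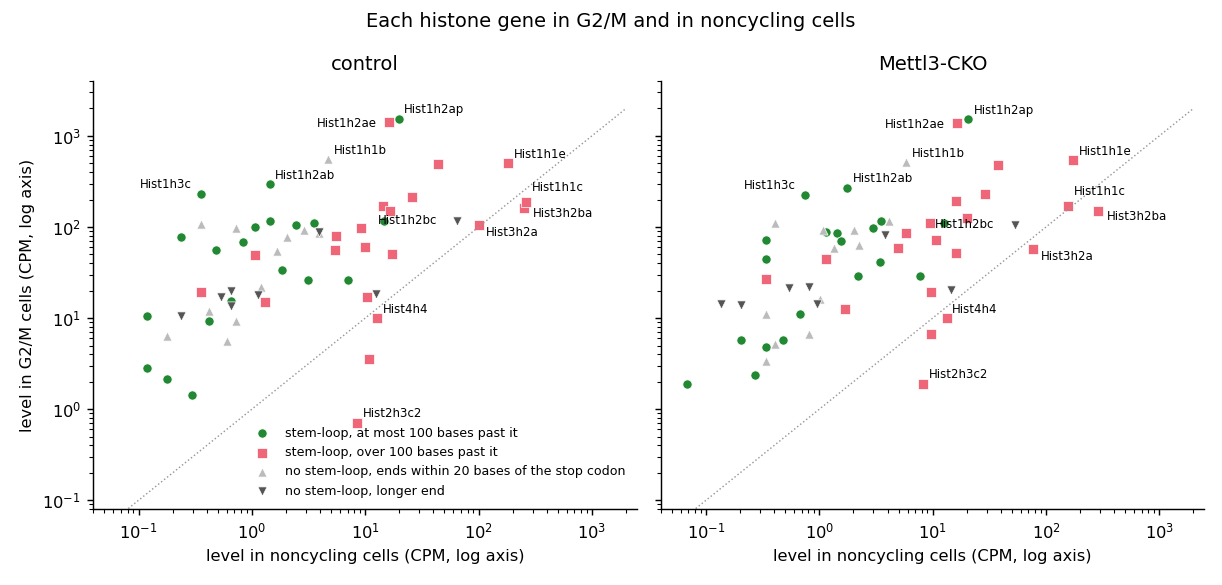
Level of each histone gene in noncycling (horizontal) and G2/M cells (vertical), both in CPM on log axes, in each library; the dotted line marks equal levels, symbols give the annotated transcript end, and Hist1h2ah, with no noncycling UMI in either library, is not drawn. Hist3h2ba, Hist1h1c, Hist3h2a, Hist4h4 and Hist2h3c2, which lie near or below the line, have over 100 bases past the stem-loop, while Hist2h2be, also near the line, has no perfect stem-loop.

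Among the H2A genes, Hist1h2ap was at 19.7 CPM in noncycling, 345 CPM in S-phase and 1548 CPM in G2/M cells of the control library and at 20.5, 606 and 1519 CPM in the Mettl3-CKO library. Hist1h2ae was at 16.3, 227 and 1427 CPM in the control and at 16.5, 367 and 1392 CPM in the Mettl3-CKO library. Both genes were thus over 70-fold higher in G2/M than in noncycling cells, by 78.7 (70.0 to 88.6) and 73.9 (65.7 to 83.5) for Hist1h2ap and 87.8 (77.3 to 99.97) and 84.6 (74.2 to 96.9) for Hist1h2ae. Hist1h2ab, at 1.43 CPM in noncycling and 297 CPM in G2/M cells of the control library, was 207-fold higher (137 to 327). Hist3h2a behaved differently from these, with 101 CPM in noncycling and 104 CPM in G2/M cells of the control library (ratio 1.04, 0.869 to 1.23) and 77.4 and 57.4 CPM in the Mettl3-CKO library (0.741, 0.609 to 0.895). Hist1h2ap shared 92.2% of its 100-base windows with Hist1h2ao, and the reads of these genes may be split between them by the counting. Hist3h2a overlaps another gene on the same strand.

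The H2B genes divided in the same way. Hist3h2ba was higher in noncycling than in G2/M cells, with 251 against 162 CPM in the control library (0.647, 0.564 to 0.739) and 287 against 148 CPM in the Mettl3-CKO library (0.516, 0.458 to 0.579). It held most of the noncycling H2B signal, 4198 of 5867 UMIs in the control. Hist1h2bc was at 65.0 and 117 CPM in noncycling and G2/M cells of the control (1.80, 1.52 to 2.12) and at 52.8 and 106 CPM in the Mettl3-CKO library (2.00, 1.71 to 2.32). Hist2h2be stood at 12.4 and 18.4 CPM in the control and at 14.5 and 20.6 CPM in the Mettl3-CKO library, ratios whose intervals (0.950 to 2.24 and 0.998 to 1.98) include 1. In contrast, Hist1h2be was 10.8-fold higher (8.50 to 13.6) in G2/M cells of the control library and 11.8-fold (9.49 to 14.6) in those of the Mettl3-CKO library.

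The linker histones spanned the whole range. Hist1h1b was at 4.72 CPM in noncycling and 553 CPM in G2/M cells of the control library (117-fold, 92.9 to 150) and at 5.85 and 515 CPM in the Mettl3-CKO library (88.0-fold, 70.6 to 111). Hist1h1e, the linker histone with the most UMIs, was at 182 and 500 CPM in the control (2.74-fold, 2.52 to 2.98) and 174 and 544 CPM in the Mettl3-CKO library (3.12-fold, 2.91 to 3.35). Hist1h1c, a linker histone known to be made outside S phase as well, was the only one of the 5 that was lower in G2/M than in noncycling cells of the control library, 188 against 263 CPM (0.715, 0.629 to 0.809), and the 2 levels were 172 and 157 CPM (1.09, 0.974 to 1.22) in the Mettl3-CKO library. Hist1h1d was 12-fold (9.99 to 14.4) and 12.1-fold (10.2 to 14.2) higher in G2/M cells. The annotated transcripts of Hist1h1e and Hist1h2be overlap on the same strand, so UMIs near the shared end cannot be assigned with certainty.

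For H3, the widest difference of a named member was that of Hist1h3c, with 6 UMIs (0.359 CPM) in noncycling and 328 UMIs (232 CPM) in G2/M cells of the control library, a 648-fold ratio with an interval of 294 to 1778, and with 0.748 and 226 CPM in the Mettl3-CKO library (302-fold, 167 to 610). Hist1h3i was 21.5-fold (15.8 to 29.6) and 28.2-fold (21.2 to 38.1) higher and Hist1h3f 14.1-fold (10.6 to 18.8) and 14.6-fold (11.3 to 19.1) higher in G2/M cells. Hist1h3e, with 25.7 and 213 CPM in the control library, was 8.27-fold higher (7.11 to 9.60), and 7.86-fold (6.89 to 8.98) in the Mettl3-CKO library. A pair of H3 genes on chromosome 3 lay on the other side, named here after their values were seen. Hist2h3c2 was at 0.0835-fold (0.0021 to 0.473; 1 UMI in G2/M) and 0.232-fold (0.0623 to 0.610; 4 UMIs) and Hist2h3c1 at 0.326-fold (0.104 to 0.774) and 0.688-fold (0.367 to 1.19) the noncycling level in G2/M cells of the control and Mettl3-CKO library.

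For H4, whose genes all encode nearly the same protein, Hist1h4d was at 44.2 and 488 CPM in noncycling and G2/M cells of the control library (11.02-fold, 9.92 to 12.2) and at 37.6 and 485 CPM in the Mettl3-CKO library (12.9-fold, 11.6 to 14.3). The ratio was 8.88 (7.38 to 10.7) and 6.29 (5.31 to 7.45) for Hist1h4i, 8.05 (6.56 to 9.85) and 8.94 (7.34 to 10.9) for Hist1h4h, and 2.97 (2.26 to 3.86) and 3.26 (2.57 to 4.11) for Hist1h4c. Hist4h4, alone on chromosome 6 and named after its values were seen, was at 12.7 CPM in noncycling and 9.92 CPM in G2/M cells of the control library and at 13.3 and 10.0 CPM in the Mettl3-CKO library, differences within counting error.

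Set against the annotated ends, members whose annotated transcript ended near the stem-loop had the larger median ratios. Genes were counted here if they had at least 20 UMIs over both states and both libraries together. Some thus entered mainly through their G2/M UMIs, such as Hist1h3b, at 0.239 CPM in noncycling and 77.9 CPM in G2/M cells of the control library. The median G2/M over noncycling ratio was 60.9 for control and 32.7 for Mettl3-CKO cells over the 18 such genes that ended at most 100 bases past the stem-loop. It was 8.27 and 6.72 over the 21 genes that ran further. Of these 21, 12 had a ratio under 10 in the control library, against 4 of the 18. The ranges overlapped, from 3.72 to 648 and from 0.0835 to 87.8 in the control library, and Hist1h2ae, which runs 151 bases past its stem-loop, was among the members with high ratios. Genes without a perfect stem-loop and with an end within 20 bases of the stop codon had medians of 32.1 and 30.3 (12 genes). Such ends may mark incomplete annotation, since the site where a transcript really ends was not measured here. With limits of 50, 200 and 500 bases in place of 100, the longer genes had medians of 9.57, 7.13 and 4.37 in the control library and the shorter ones 43.1, 45.4 and 23.7. The limit of 100 bases was set after the values were seen, and the classes are a description. Libraries primed on poly(A) tails also see transcripts without one poorly, and how far capture differed between members was not tested. Reads that lie past an annotated end may not have been counted to their gene, and how far this changed the ratios was not tested either.

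A small number of members held most of the captured histone UMIs of noncycling cells. Hist3h2ba, Hist1h1c, Hist1h1e, Hist3h2a and Hist1h2bc, the 5 members with the highest noncycling levels, held 73.6% of the histone UMIs of noncycling cells in the control library (73.0 to 74.3) and 70.5% (69.8 to 71.2) in the Mettl3-CKO library. In G2/M cells they held 13.0% and 12.7%. The other 57 members summed to 308 CPM in noncycling and 7174 CPM in G2/M cells of the control library (23.3-fold, 22.5 to 24.1) and to 313 and 7042 CPM in the Mettl3-CKO library (22.5-fold, 21.7 to 23.2). The 5 were picked by these levels, so their shares are a description. Since capture may differ between members, they are shares of captured UMIs and not of histone mRNA.

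Within cycling cells, the histone level rose and then fell along the balance of S-phase and G2/M genes. The time of a cell in the cycle was not measured. S-phase and G2/M cells together were ordered by the share of G2/M genes among their UMIs of both lists, in 6 bins set after the levels by state had been seen. In the control library the summed level was 1032 CPM where this share was under 20%, 3330 CPM between 20 and 40%, 14246 CPM between 40 and 60%, 12998 CPM between 60 and 80%, 7284 CPM between 80 and 95% and 3836 CPM above. In the Mettl3-CKO library the levels were 1101, 2861, 10710, 11283, 7928 and 3796 CPM in the same order. Cells with many UMIs of both lists thus had the highest levels in both libraries, and the summed level of cells with a G2/M share under 20% was close to the noncycling one. In those cells the 57 members outside the 5 highest in noncycling cells were at 576 CPM in the control library and at 703 CPM in the Mettl3-CKO library, above their 308 and 313 CPM in noncycling cells. Leaving out the 5 highest in noncycling cells favoured this order. The control bins from 20 to 60% held only 14 and 16 cells, and without them the bin from 60 to 80% was the highest in the control library too.

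**Figure D3:**
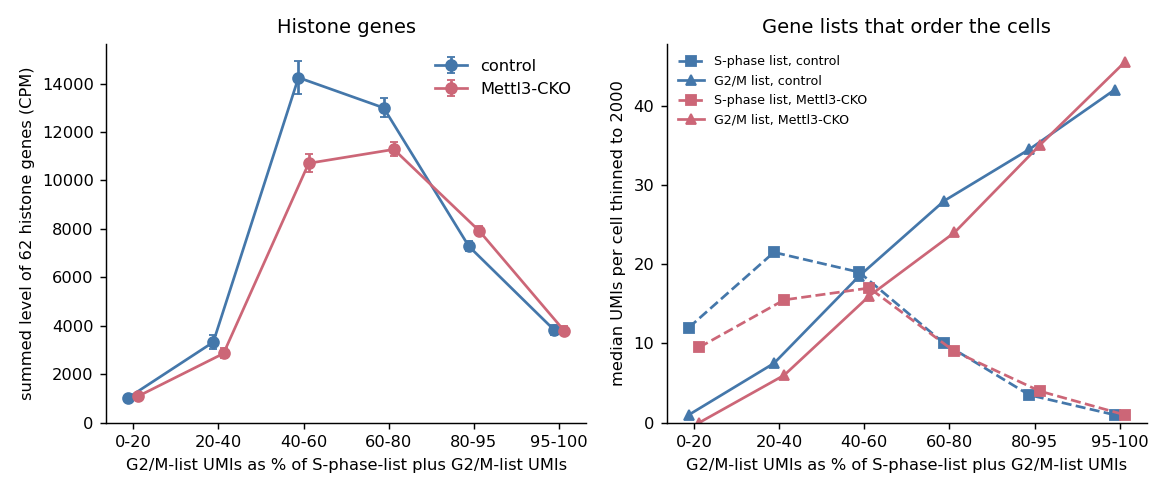
Left, summed level of the 62 histone genes (CPM, with 95% Poisson intervals) in S-phase and G2/M cells binned by the G2/M share of cell cycle UMIs (horizontal axis, percent), for the control (blue) and Mettl3-CKO (red) library; right, the median UMIs of both lists per thinned cell in the same bins. The histone level peaks in the middle bins, at 14246 CPM in the control and 11283 CPM in the Mettl3-CKO library, where both lists are well above 0.

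Of 50 members with at least 50 UMIs in cycling cells, 23 were highest between 40 and 60% and 24 between 60 and 80%, with both libraries summed. The share of all genes highest in these bins is not given here. The minimum was also applied in these same cells, so the counts are a description only. The other 3 were Hist3h2ba, Hist3h2a and Hist1h2bc, which were highest between 80 and 95%, and all 3 are among the 5 members with the highest noncycling levels. Hist1h2ap was at 31.4, 787, 2631, 2693, 1302 and 559 CPM along the 6 bins of the control library. Hist3h2ba was at 104, 105, 132, 158, 154 and 183 CPM along them, a far flatter course. Hist1h1c, at 67.5, 140, 206, 208, 198 and 147 CPM, lay in between.

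Few S-phase cells carried the S-phase level. Cells of at least 5000 CPM, a limit set after the values were seen, were 8 of 69 in S phase of the control library and held 58.7% of its S-phase histone UMIs, and 18 of 117 held 64.9% in the Mettl3-CKO library. The median cell was at 1227 and 1057 CPM. In G2/M, 64 of 118 and 102 of 173 cells were past that limit and held 91.4% and 91.6% of the histone UMIs. Thinned to 2000 UMIs, 63.8% of S-phase (44 of 69) and 89.0% of G2/M cells (105 of 118) of the control library had a UMI of the 57 members outside the 5. In its noncycling classes the share ranged from 24.5% of 53 amacrine-like to 58.1% of 198 rod/bipolar precursor-like cells. It was 44.9% in Müller-like and 30.8% in 13 microglia-like cells. The median depth before thinning was 8401 UMIs in S-phase and 11471 in G2/M cells. It was 10266 in amacrine-like, 6043.5 in rod/bipolar precursor-like and 10902 in microglia-like cells. The 5 members left out were those highest in noncycling cells of these data, so lower shares in noncycling cells were favoured by the choice.

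Between genotypes, the Mettl3-CKO library stood at 0.979-fold (0.956 to 1.002) the control in the summed histone level of G2/M cells, and at 0.907-fold (0.885 to 0.929; 9221 against 8364 CPM) in G2/M cells of the RPC-like clusters alone. Over all cells of a state the ratio was 1.26 (1.18 to 1.34) in S phase and 0.908 (0.889 to 0.928) in noncycling cells. The S-phase value depended on the cells that entered. It was 0.995 with another random thinning, 0.972 without thinning, 0.910 when cells past both limits were counted in S phase, and 1.004 (0.939 to 1.08; 3397 against 3412 CPM) in S-phase cells of the RPC-like clusters alone. Without the cells of at least 5000 CPM, the S-phase cells stood at 1133 CPM in the control and 1312 CPM in the Mettl3-CKO library. Along the 6 cycle bins the ratio of Mettl3-CKO to control was 1.07 (0.945 to 1.20), 0.859 (0.765 to 0.966), 0.752 (0.709 to 0.797), 0.868 (0.835 to 0.903), 1.09 (1.05 to 1.13) and 0.990 (0.922 to 1.06), on 14 to 52 control cells and 24 to 78 Mettl3-CKO cells per bin. No difference of S-phase histone levels between the libraries held across these settings.

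By type, the ratio of Mettl3-CKO to control in S phase was 1.58 (1.42 to 1.75) for H2A, 1.45 (1.18 to 1.77) for H3, 1.18 (1.001 to 1.40) for H2B, 1.16 (0.940 to 1.43) for H4 and 0.954 (0.851 to 1.07) for H1. In G2/M all 5 types lay between 0.958 and 1.08. In noncycling cells H1 was at 0.764 (0.737 to 0.791), H2A at 0.875 (0.826 to 0.926) and H2B at 1.08 (1.04 to 1.12), while the intervals of H3 and H4 included 1. Of the noncycling H1 genes Hist1h1c was at 0.599 (0.569 to 0.630), Hist1h1e at 0.957 (0.908 to 1.01), Hist1h1d at 1.12 (0.934 to 1.35), Hist1h1b at 1.24 (0.902 to 1.70) and Hist1h1a at 0.980 (0.673 to 1.42).

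**Figure D4:**
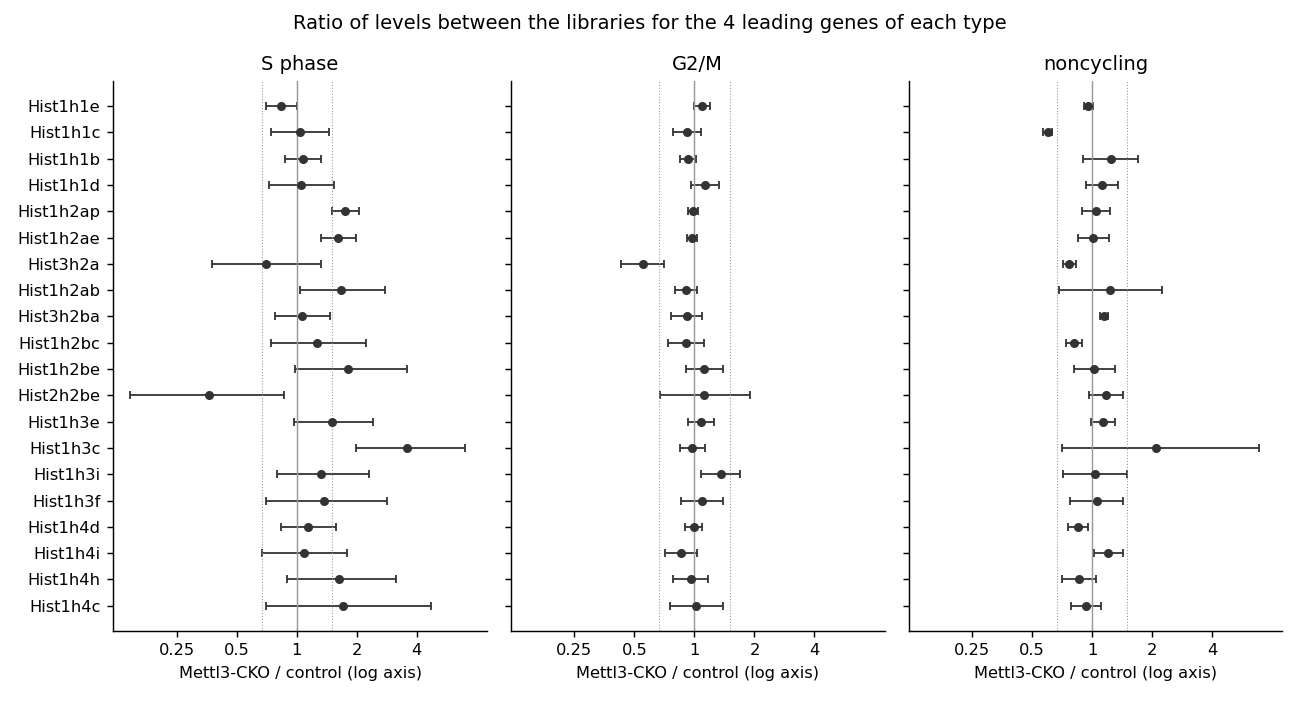
Ratio of the level in the Mettl3-CKO library to that in the control library (horizontal, log axis) for the 4 members of each histone type with the most UMIs, in S-phase, G2/M and noncycling cells; points are ratios of single libraries, bars 95% counting intervals, the solid line marks equal levels and the dotted lines 1.5-fold. Hist1h1c in noncycling cells (0.599) and Hist3h2a in G2/M cells (0.551) lie left of the dotted line, while the S-phase points scatter with wide intervals.

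In S phase, 11 of 34 members with at least 20 UMIs were at least 1.5-fold higher in the Mettl3-CKO library (all genes, 13.4%) and 1 was at least 1.5-fold lower (all genes, 6.77%). With another random thinning, 6 members in place of 12 were past the limit in either direction. In G2/M, 2 of 55 were higher (all genes, 13.3%) and 4 lower (all genes, 5.27%). In noncycling cells, 2 of 45 were higher (all genes, 5.43%) and 1 lower (all genes, 5.43%). The median log2 ratio of members was 0.20, -0.04 and 0.06 in the 3 states, beside 0.04, 0.07 and 0.01 for all genes. The member lower in S phase was Hist2h2be (15 and 10 UMIs). In G2/M the higher ones were Hist1h2bl and Hist1h3a and the lower ones Hist3h2a, Hist1h4k, Hist1h4f and Hist1h4b. In noncycling cells Hist1h2bm and Hist1h2bn were higher and Hist1h1c lower. Those not described below were named after their values were seen.

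Of the members with at least 50 UMIs in S phase, 8 of 23 were past 1.5-fold higher in the Mettl3-CKO library (all genes with that minimum, 7.84%) and 0 lower (3.75%). Hist1h2ap (345 against 606 CPM, 1.76, 1.501 to 2.06), Hist1h2ae (227 against 367 CPM, 1.62, 1.33 to 1.98) and Hist1h2ab (39.99 against 66.8 CPM, 1.67, 1.04 to 2.77) were H2A genes, and so was Hist2h2ac (31.7 against 51.5 CPM, 1.63, 0.953 to 2.89). Hist1h3c was at 21.7 against 77.7 CPM (3.58, 1.99 to 7.00) and Hist1h3e at 46.7 against 70.4 CPM (1.51, 0.969 to 2.41). Hist1h2be (23.3 against 42.4 CPM, 1.82, 0.985 to 3.58) and Hist1h4h (25.0 against 40.6 CPM, 1.63, 0.889 to 3.14) completed them. With cells past both limits counted in S phase, Hist1h2ap, Hist1h2ae, Hist1h2ab and Hist1h4h were at 0.956, 0.917, 0.947 and 0.835, on the other side of 1.

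In G2/M, 1 of 45 members with at least 50 UMIs was past 1.5-fold lower (all genes with that minimum, 2.93%) and 1 higher (10.3%). Hist3h2a was at 104 CPM (147 UMIs) in the control and 57.4 CPM (120 UMIs) in the Mettl3-CKO library (0.551, 0.429 to 0.706), and Hist1h3a at 26.2 CPM (37 UMIs) and 41.1 CPM (86 UMIs; 1.57, 1.05 to 2.37). Hist3h2a was at 0.770 (0.713 to 0.830) in noncycling cells as well. In noncycling cells 1 of 34 such members was past 1.5-fold lower (all genes with that minimum, 3.76%) and 0 higher (3.46%). This was Hist1h1c, at 263 CPM (4394 UMIs) in the control and 157 CPM (2312 UMIs) in the Mettl3-CKO library (0.599, 0.569 to 0.630).

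These members were then followed through the cell classes of noncycling cells, which were clusters named from marker genes. In the clusters taken as Rod-like, 9, 8 and 9 of the 10 rod markers were raised over all other cells. Of the 7 named classes with at least 50 noncycling cells in each library, Rod-like cells had the highest level of Hist1h1c, at 375 CPM (357 to 393) in the control and 204 CPM (189 to 219) in the Mettl3-CKO library, 0.543-fold (0.497 to 0.593). The unnamed clusters stood at 409 and 226 CPM and the few microglia-like cells at 441 and 148 CPM (84 and 32 UMIs in 13 and 11 cells). It was also lower in neurogenic precursor-like (124 and 76.5 CPM; 0.618, 0.483 to 0.787) and rod/bipolar precursor-like cells (240 and 168 CPM; 0.702, 0.581 to 0.846) of the Mettl3-CKO library. In Cone-like (113 and 106 CPM), Müller-like (83.9 and 67.6 CPM), Bipolar-like (83.7 and 55.0 CPM) and Amacrine-like cells (86.0 and 104 CPM) the intervals of the ratio included 1.

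Hist3h2ba was distributed differently over the classes. In the control library it was highest in Bipolar-like (883 CPM, 829 to 939), Cone-like (830 CPM, 767 to 897) and Amacrine-like cells (722 CPM, 651 to 799). It was lower in rod/bipolar precursor-like (256 CPM), neurogenic precursor-like (255 CPM) and Müller-like cells (210 CPM), and the lowest of the 7 in Rod-like cells, at 71.1 CPM (63.5 to 79.4). The levels of the Bipolar-like and Cone-like cells did not differ beyond their intervals, and neither did those of both precursor classes. Microglia-like cells, few and of another lineage, had 2 UMIs in 13 control and 5 UMIs in 11 Mettl3-CKO cells.

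In the Mettl3-CKO library Hist3h2ba was at 183 CPM (169 to 198) in Rod-like cells, 2.57-fold (2.25 to 2.95) the control level. It was at 0.822 (0.722 to 0.934) in Bipolar-like, 0.790 (0.685 to 0.913) in Amacrine-like and 1.07 (0.975 to 1.18) in Cone-like cells. The Rod-like ratio was 2.98 (2.499 to 3.57), 2.38 (1.89 to 3.02) and 1.95 (1.10 to 3.53) within the 3 clusters that made up the class. It was 2.03 (1.62 to 2.54) against the 145 Mettl3-CKO cells of at least 4000 UMIs without a UMI of Xist. Over the same cells Hist1h1c stood at 0.413 (0.342 to 0.496).

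**Figure D5:**
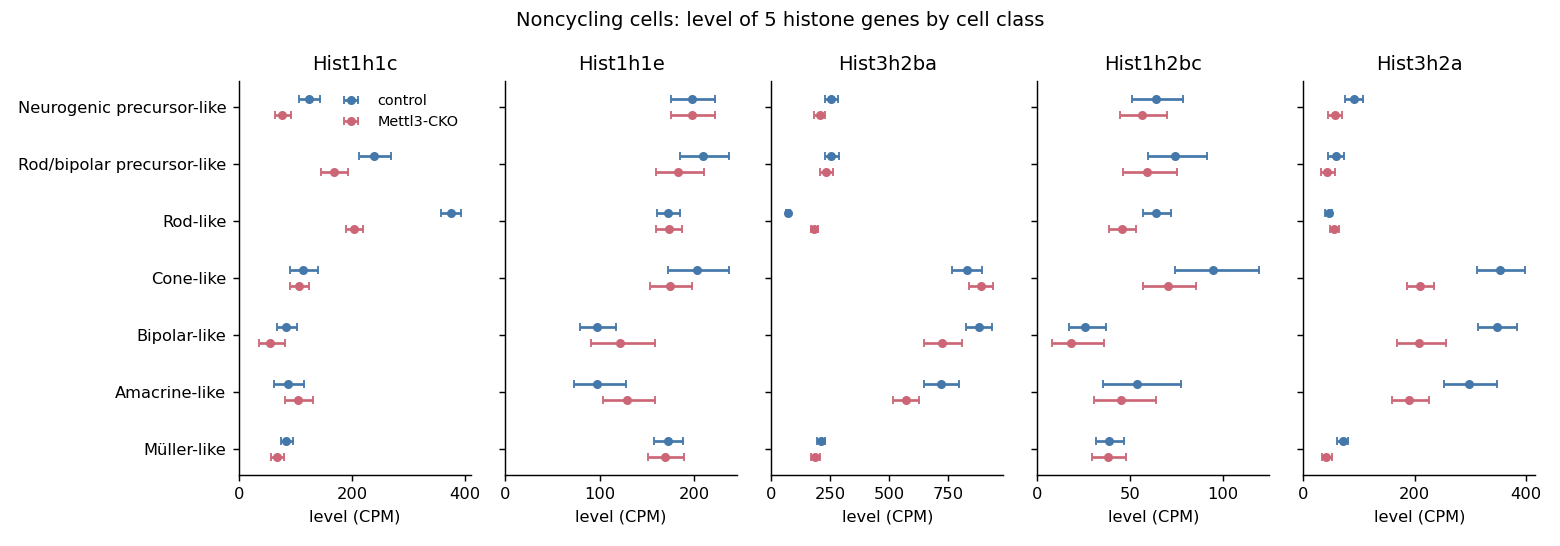
Level (CPM, horizontal) of 5 histone genes in noncycling cells of 7 cell classes of the control (blue) and Mettl3-CKO (red) library; points are levels of 1 library with 95% Poisson intervals. Hist1h1c is highest in Rod-like cells (375 and 204 CPM), Hist3h2ba is lowest there in the control library (71.1 CPM) and close to its Müller-like level in the Mettl3-CKO library (183 and 187 CPM), and Hist3h2a is highest in Cone-like, Bipolar-like and Amacrine-like cells.

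Hist3h2a, which lies close to Hist3h2ba on chromosome 11, was likewise highest in Cone-like (354 CPM), Bipolar-like (348 CPM) and Amacrine-like cells (298 CPM) of the control library and the lowest of the 7 in Rod-like cells (45.9 CPM). Its ratio of Mettl3-CKO to control was 0.594 (0.502 to 0.704), 0.598 (0.471 to 0.753) and 0.637 (0.501 to 0.809) in the first 3 of these classes, 0.589 (0.448 to 0.769) in Müller-like and 0.628 (0.471 to 0.833) in neurogenic precursor-like cells, and 1.21 (0.992 to 1.48) in Rod-like cells. Hist1h1e varied less between classes, from 97.1 CPM in Bipolar-like to 210 CPM in rod/bipolar precursor-like cells of the control library, and its ratio between genotypes had an interval that included 1 in each of the 7 classes. Hist1h2bc was at 25.8 CPM in Bipolar-like and 94.7 CPM in Cone-like cells of the control library, and its ratio in Rod-like cells was 0.711 (0.583 to 0.865).

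The promoters of the members shared short motifs. A RefSeq promoter, 250 bases before to 50 bases after the start on GRCm38, was found for 57 of the 62 genes, and each motif was searched on both strands. CCAAT occurred in 84.2% of them, beside 37.4% of all 32817 promoters, and in all H1, H2A, H2B and H3 promoters found but 25.0% of H4 promoters. TATAAA occurred in 57.9%, beside 13.6%. The octamer ATTTGCAT occurred in 19.3% of members (11 genes: 6 H2A and 5 H2B), beside 1.74% of all promoters. The windows below are shown because the same octamer lies between pairs of H2A and H2B genes that are read in opposite directions, and because Hist3h2a, which had about the same level in G2/M and noncycling cells of the control library, holds the octamer as well. Capitals mark the octamer, or its reverse complement, each window being written 5′ to 3′ on the strand of its gene.

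Hist1h2ae (H2A, chr13:23571321-23571368, minus strand): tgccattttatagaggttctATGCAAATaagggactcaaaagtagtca
Hist1h2bg (H2B, chr13:23571321-23571368, plus strand): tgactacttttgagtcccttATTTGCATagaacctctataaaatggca
Hist1h2ab (H2A, chr13:23750939-23750986, plus strand): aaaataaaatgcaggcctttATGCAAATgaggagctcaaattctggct
Hist3h2a (H2A, chr11:58954546-58954593, plus strand): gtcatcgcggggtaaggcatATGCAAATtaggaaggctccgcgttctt

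Hist1h2ae and Hist1h2bg share 1 window, read from opposite strands. Hist1h2ae was 87.8-fold and Hist1h2bg 45.4-fold higher in G2/M than in noncycling cells of the control library. Hist1h2ab was 207-fold and Hist3h2a 1.04-fold, so genes with the octamer differed widely in this ratio. A match is a description of the sequence only.

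Related genes were compared over the same states. The 11 replication-independent histone variants summed to 14234, 13537 and 24530 CPM in noncycling, S-phase and G2/M cells of the control library and to 12562, 13452 and 22201 CPM in the Mettl3-CKO library. H3f3b and H3f3a, the genes of histone H3.3, were at 0.840-fold and 0.965-fold the noncycling level in G2/M cells of the control library, H2afv at 3.09-fold and H2afz at 8.95-fold. Of these 11 variant genes, 7 were past 1.5-fold higher in G2/M than in noncycling cells of each library (all genes, 20.8% and 21.6%). Histone pre-mRNA processing factors were higher in S phase, by 1.99-fold (1.87 to 2.12) in the control and 1.89-fold (1.80 to 1.99) in the Mettl3-CKO library. Slbp, the gene of the stem-loop binding protein, was at 62.2 CPM in noncycling, 457 CPM in S-phase and 188 CPM in G2/M cells of the control library and at 66.6, 431 and 201 CPM in the Mettl3-CKO library, while Snrpb, Ncbp2 and Cpsf2 were between 1.31-fold and 1.61-fold in S phase of the control. In S phase of the control library 7 of the 14 processing factors with enough UMIs were past 1.5-fold higher (all genes, 22.3%) and 1 lower (32.5%), against 6 (24.1%) and 0 (29.8%) in the Mettl3-CKO library.

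The histone chaperones, which carry new histones to DNA, also had their highest summed level in S phase, 2.69-fold (2.55 to 2.83) the noncycling level in the control and 2.72-fold (2.61 to 2.83) in the Mettl3-CKO library, and 12 of 14 were past 1.5-fold higher there in each library (all genes, 22.3% and 24.1%). Nasp, which binds H1 and the H3-H4 pair, was 5.24-fold and 5.73-fold higher in S phase, Ssrp1 1.85-fold and 1.69-fold, Rbbp4 1.69-fold and 1.55-fold and Supt16 1.66-fold and 2.22-fold. Between genotypes, 0 of 13 chaperones, 1 of 14 processing factors (Lsm10) and 1 of 11 variants (Cenpa) were past 1.5-fold in S phase, all higher in the Mettl3-CKO library, read against the 13.4% of all genes given above. With the states as defined here, chaperones and processing factors had their highest summed level in S-phase cells and the variants in G2/M cells.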

How the data were processed

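The deposited files held raw UMI counts per gene and cell. By the notes and methods given with them, fastp cleaned the reads, and the authors made these counts with Cell Ranger 3.1.0 on GRCm38 (mm10); normalization with Seurat 3.1 was not part of the deposited counts. Whether counting used the strand, and how reads matching several genes were treated, is not given in the sources used here. Of the 62 genes, 22 overlap another gene of the annotation, 7 of them on the same strand, and 20 share at least 50% of their 100-base windows with another member.

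Only cells whose entries were complete in the matrices as read were used, and totals exclude mitochondrial genes. Levels used every such cell, although 237 control and 86 Mettl3-CKO cells did not meet the study's filter of over 200 genes and under 20% mitochondrial UMIs. Cells under 2000 UMIs (901 control, 524 Mettl3-CKO) had no cell state. A total of 13 control and 25 Mettl3-CKO S-phase cells lay within 2 UMIs of a limit. Levels are summed UMIs per 1000000 (CPM) with exact Poisson intervals, ratios have exact conditional binomial intervals, shares Clopper-Pearson and ratios of shares Katz intervals, all at 95%. With 1 library per genotype no p-value was computed. The counting of genes past 1.5-fold was tested on simulated data, whose outcome is not given here and is not used in support of any count. Doublets were scored with Scrublet, whose own threshold marked 3 and 7 cells, so the 5% with the highest scores (233 and 160 cells) were left out as an alternative.

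Clusters came from 2000 variable genes without the members and Mettl3, 10 principal components, 20 neighbours and the Leiden method at resolution 1 (Python 3.11.15 with scanpy 1.11.5, pandas 2.3.3, igraph 0.11.9, numpy 2.4.6, leidenalg 0.10.2, scipy 1.17.1 and scikit-learn 1.9.0). They were named from marker lists, since no annotation of the authors was used, so class values may differ from those of the study. A cluster led by Ttr, Rgs5 and Pmel was left unnamed after its leading genes were seen.

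The members, the lists, the cell state limits and the alternatives were chosen with earlier results of these data known. Named genes were the 4 members of each type with the most UMIs, the members past 1.5-fold between genotypes with at least 50 UMIs in a state, and the 4 genes of each related list with the most UMIs. Exceptions are said beside their values. The cycle bins, the 5 members highest in noncycling cells, the limit of 5000 CPM, the annotated-end limits and the split of Rod-like cells were chosen after values were seen.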

Additional observations from a re-analysis of the deposited data

Results flagged for a closer look

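With the states as defined here, the ratio of Mettl3-CKO to control lay on opposite sides of 1 in S-phase and noncycling cells. Summed over all members it was 1.26 (1.18 to 1.34) in S-phase and 0.908 (0.889 to 0.928) in noncycling cells. For the H2A genes it was 1.58 (1.42 to 1.75) in S-phase cells, 0.958 (0.926 to 0.992) in G2/M cells and 0.875 (0.826 to 0.926) in noncycling cells. Neither difference was tested, since each genotype was 1 library. The S-phase ratio of all members moved with the cells that entered, as given in the report and below. It was below 1 with another thinning, without thinning and with cells past both limits. The H2A genes Hist1h2ap and Hist1h2ae were also below 1 in S phase with cells past both limits.

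Hist3h2ba differed in direction between cell classes of noncycling cells. In Rod-like cells the Mettl3-CKO level was 2.57-fold (2.25 to 2.95) the control level, and in Amacrine-like cells 0.790-fold (0.685 to 0.913). This difference was not tested.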

How the results depend on the processing

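Among 330 values under another setting, 138 summaries kept their value within counting error (counts within 1.5 times) and 48 moved, while of the named genes 122 kept it, 12 moved and 10 changed direction. In the order control then Mettl3-CKO, S phase over noncycling was 2.04 and 2.84 as reported. It was 6.63 and 6.64 with cells past both limits in S phase, 2.45 and 2.66 with another thinning, 2.81 and 2.97 without thinning, 2.49 and 3.74 without the leading gene, 1.46 and 2.03 under looser and 2.47 and 3.84 under stricter limits. In the Mettl3-CKO library it was 2.49 as a mean of per-cell CPM and 3.18 in cells without Xist.

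G2/M over noncycling, 7.05 and 7.59 as reported, was 4.27 and 4.87 with cells past both limits in S phase, 8.80 and 10.2 without the leading gene, 7.82 and 8.11 under median-of-ratios scaling and 8.04 and 8.02 under stricter limits. It was 7.26 in the control with another thinning. In the Mettl3-CKO library it was 7.30 under looser limits, 7.97 without the highest doublet scores and 7.13 in cells without Xist.

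The summed Mettl3-CKO over control ratio in S phase, 1.26, was 0.910 with cells past both limits, 0.995 with another thinning, 0.972 without thinning, 1.08 per cell and 1.42 under stricter limits. In G2/M, 0.979, it was 1.04 with cells past both limits, 1.01 without thinning, 1.01 without the highest doublet scores, 0.954 per cell, 0.933 under median-of-ratios scaling, 0.913 under stricter limits and 0.857 in cells without Xist. In noncycling cells, 0.908, it was 0.844 without the leading gene and 0.849 in cells without Xist. The ratio of S-phase shares, 2.03, was 1.51 under looser limits.

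The number of members past 1.5-fold between genotypes in S phase was 6 in place of 12 with another thinning. In noncycling cells, 3 members became 6 under stricter limits, 10 in cells without Xist and 1 with a minimum of 50 UMIs, and in G2/M 6 became 2 with that minimum. In S phase over noncycling, 29 higher members became 46 in the control with cells past both limits and 34 became 22 in the Mettl3-CKO library with the minimum of 50 UMIs.

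The direction changed for 4 named S-phase ratios. Hist1h2ab was at 0.947 with cells past both limits, 0.886 with another thinning and 0.987 without thinning. Hist1h2ae was at 0.917 and 0.884 under the first and second of these settings, and Hist1h2ap at 0.956 with cells past both limits. Hist1h4h was at 0.835, 0.926 and 0.849 under the same 3 settings and at 0.917 per cell. The cause was not tested in any of these cases. The setting with cells past both limits and the 5% limit on doublet scores were chosen after the data had been seen.

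No paired analysis was possible because each genotype was 1 library. Depth limits the S-phase values, with 1434 and 3336 histone UMIs in 69 and 117 cells. Members with under 20 UMIs over the groups compared were not counted, 28 of 62 in S phase between genotypes.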
